A study of Mus musculus with 38 samples.

Results

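The genes described here encode 8 subunits of the voltage-gated sodium channel, Scn1a, Scn2a, Scn3a, Scn8a, Scn9a, Scn2b, Scn3b, and Scn4b. They were taken by gene symbol from a table of read counts for 54165 genes, and all 8 were found, each once. A voltage-gated sodium channel opens when the membrane depolarizes and carries the inward current of the action potential. Its alpha subunit forms the pore and is made from 1 gene per channel type, and its beta subunits are small membrane proteins that change how the channel opens and hold it at the membrane. In brain neurons the channels are packed at the axon initial segment, where action potentials start, and at the nodes of myelinated axons.

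RNA was sequenced from the prefrontal cortex (PFC) and the hypothalamus (Hypo) of adult FVB/NJ mice. Ube3a2X mice are homozygous for a transgene that adds copies of Ube3a, a ubiquitin ligase gene, and their wild-type (WT) littermates were the controls. The PFC was sampled from 5 WT males, 5 WT females, 5 Ube3a2X males, and 5 Ube3a2X females, and the Hypo from 4 WT males, 4 WT females, 5 Ube3a2X males, and 5 Ube3a2X females. These 38 libraries came from 25 separate mice, of which 13 gave both tissues, and single libraries are named by the number of the mouse. As the study describes this line, the extra Ube3a copies carry a tag at the end of the protein. In each tissue the study asked whether the effect of genotype differs between the sexes, and the table of both tissues also allows the channel genes to be compared between PFC and Hypo.

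Of the 5 alpha genes, 4 lie together on mouse chromosome 2, within 1177.8 kb (GRCm38). Scn3a is at chr2:65457118-65567627 on the minus strand, Scn2a at chr2:65620771-65767447 on the plus strand, Scn1a at chr2:66270778-66440840 on the minus strand, and Scn9a at chr2:66480080-66634962 on the minus strand. Scn8a lies apart, at chr15:100869858-101045938 on the plus strand. The beta genes are on the plus strand of chromosome 9, Scn3b at chr9:40269217-40291618, Scn2b at chr9:45117782-45130070, and Scn4b at chr9:45138395-45154152, only 8.3 kb after Scn2b. The coding sequences of the alpha genes were 70.0 to 83.5% identical to each other in pairwise alignments, most alike for Scn2a and Scn3a, and those of the beta genes 38.3 to 47.9%. Reads from stretches that 2 genes share can be assigned to the wrong gene. Of all 100-base windows of the coding sequence, 1.7% in Scn1a, 2.28% in Scn2a, 4.86% in Scn3a, and 3.26% in Scn9a occurred letter for letter in a transcript of another of the 8 genes, and none did in Scn8a or the beta genes. The longest shared stretch was 188 bases, between Scn1a and Scn2a. The reference is not of the FVB/NJ strain, so these shares may differ somewhat in the mice studied.

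The counted reads per library ranged from 36.89 M to 69.14 M for the PFC and from 39.05 M to 380.8 M for the Hypo. Levels are given as CPM, the reads of a gene relative to all counted reads of its library (per 1 M reads), scaled by the trimmed mean of M values (TMM). Ube3a, measured as a check of the genotype labels, was at 697.7 to 2269 CPM in the 20 Ube3a2X libraries and at 105.3 to 348.8 CPM in the 18 WT libraries, without overlap. Slc17a7, the vesicular glutamate transporter of cortical excitatory neurons, was at 1455 to 2087 CPM in the PFC and at 0.41 to 8.35 CPM in the Hypo, and Pmch, a neuropeptide gene of the Hypo, was at 183.5 to 1153 CPM in the Hypo and at no more than 0.588 CPM in the PFC. Both tissues thus carried the markers of their labels. The Hypo library of WT female 471 stood apart, with the fewest reads of that tissue and the lowest Scn1a, Scn2a, Scn3a, Scn8a, Scn9a, and Scn3b of its tissue. In the PFC, the library of Ube3a2X female 468 had the fewest reads and the highest Scn1a, Scn2a, Scn3a, Scn8a, Scn2b, and Scn3b. Fitted differences and correlations that move most with these libraries are also given without them.

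Between the tissues, 7 of the 8 genes differed, 5 higher in the PFC and 2 higher in the Hypo (edgeR quasi-likelihood test with RNA integrity as a covariate, adjusted P under 0.05). Over all 22282 genes tested, 63.4% were called in this comparison, 31% higher and 32.4% lower in the PFC, so a call by itself sets a gene little apart from the rest. The median log2 difference was 0.48 for the 8 genes and −0.02 for all genes. The same 5 higher and 2 lower genes were called in WT mice alone, where 60.7% of all genes were called (29% higher, 31.6% lower), and in Ube3a2X mice alone, where 55.5% were (27.8% higher, 27.7% lower). With each mouse as a term in the model, on the 13 mice with both tissues, 6973 of 23964 genes were called and 6 of the 8. In tissue RNA, fewer cells that make a transcript and less of it per cell cannot be told apart. RNA integrity was lower in the PFC (median 7.6) than in the Hypo (8.95), and so was the ratio of coverage at the 5′ end to that at the 3′ end (median 0.442 and 0.735). The PFC libraries were made from 500 ng and the Hypo libraries from 1000 ng of RNA, which cannot be told apart from tissue.

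**Figure D1:**
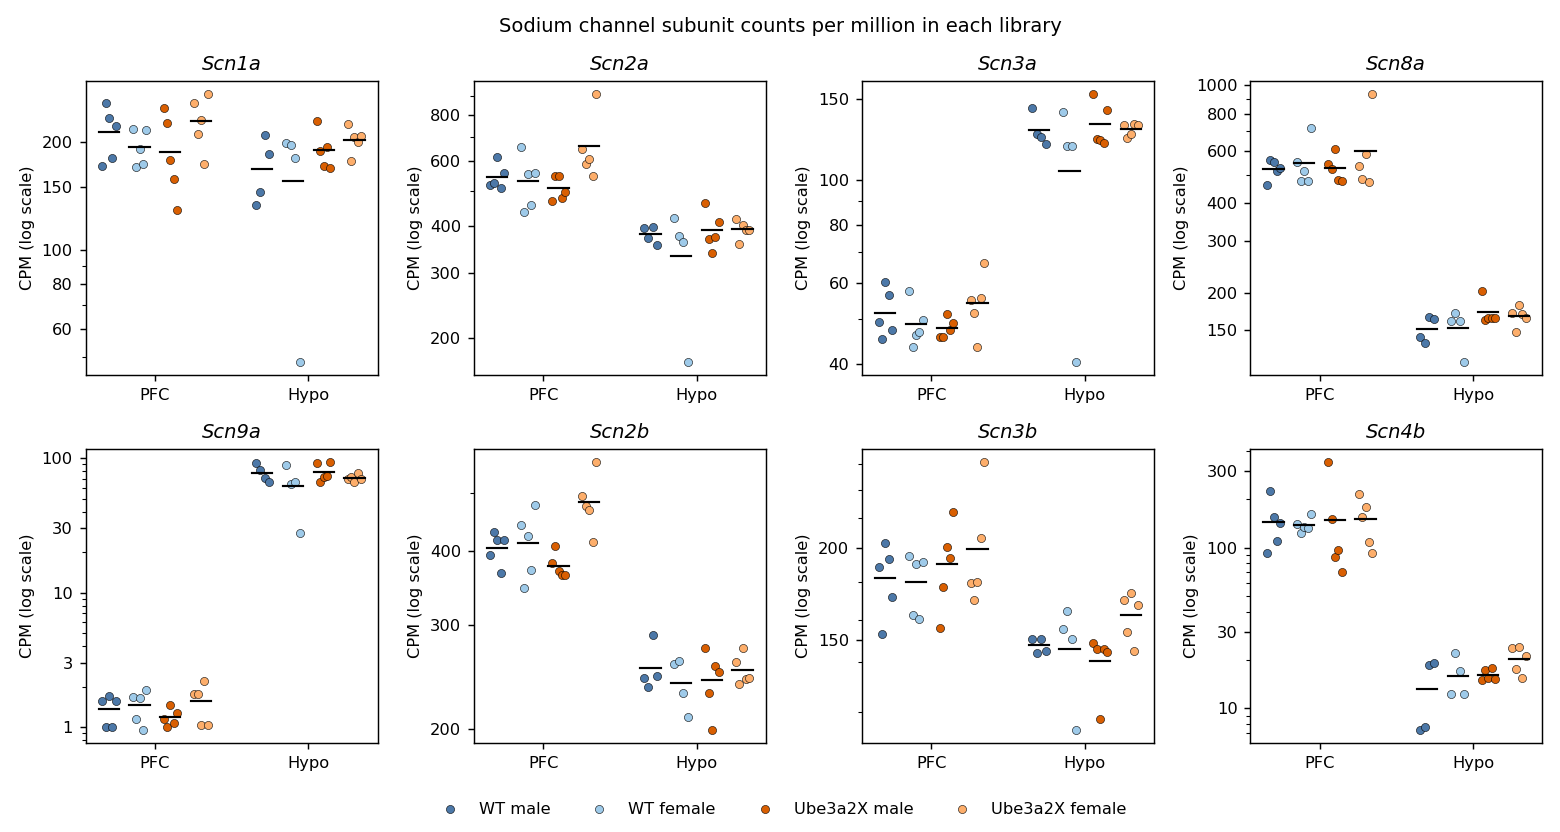
CPM (TMM-scaled, log axis) of the 8 channel genes in each of the 38 libraries, by tissue and by genotype and sex (colours), with the mean of each group as a line. Scn8a, Scn2b, and Scn4b are higher in every PFC library than in any Hypo library and Scn9a is lower in every PFC library.

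Scn8a and Scn2a encode the main alpha subunits of the axon initial segment in excitatory neurons, Scn8a in mature axons and Scn2a more in young and unmyelinated ones. Scn8a ranged from 461.2 to 929.8 CPM in the PFC (median 524.6, 20 libraries) and from 117.4 to 203.0 CPM in the Hypo (median 164.8, 18 libraries). Every PFC library exceeded every Hypo library, and the fitted level was 3.63-fold higher in the PFC (log2 difference 1.86 ± 0.11, SE, adjusted P = 3.73e-17). Without Ube3a2X female 468, which had the highest level, the log2 difference was 1.73.
Scn2a ranged from 438.3 to 910.2 CPM in the PFC (median 549.0) and from 172.0 to 461.8 CPM in the Hypo (median 384.5). The ranges overlapped, but the PFC library was the higher in all 13 mice with both tissues. The fitted log2 difference of Scn2a was 0.65 ± 0.12 (SE), a 1.56-fold higher level in the PFC (adjusted P = 1.84e-05), and it was 0.58 without Hypo WT female 471 and 0.55 without PFC Ube3a2X female 468.

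Scn1a encodes the alpha subunit of fast-spiking interneurons. It ranged from 128.7 to 271.8 CPM in the PFC (median 213.2) and from 48.43 to 229.6 CPM in the Hypo (median 191.1). This was the channel gene that was not called between the tissues, with a log2 difference of 0.23 ± 0.17 (SE, adjusted P = 0.24), and the PFC library was the higher in 10 of 13 mice. Scn3a and Scn9a were higher in the Hypo. Scn3a, whose transcript is abundant before birth and falls as the brain matures, ranged from 43.58 to 66.09 CPM in the PFC (median 49.17) and from 40.45 to 153.2 CPM in the Hypo (median 124.6). The ranges overlapped only through Hypo WT female 471, since the other 17 Hypo libraries were at 118.4 CPM or more. The Hypo level of Scn3a was 2.42-fold higher than that of the PFC (log2 difference −1.28 ± 0.13, SE, adjusted P = 2.24e-10).
Scn9a, the alpha subunit best known from pain-sensing neurons of the peripheral nervous system, showed the largest difference of the 8 genes. It was at 0.952 to 2.19 CPM in the PFC (median 1.36), 31 to 114 reads per library, and at 27.92 to 92.95 CPM in the Hypo (median 71.3). The Hypo level was 53.4-fold higher (log2 difference −5.74 ± 0.17, SE, adjusted P = 9.61e-26), and the Hypo library was the higher in all 13 mice. How many of the few PFC reads of Scn9a came from stretches it shares with other channel genes was not tested.

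Scn2b and Scn4b encode the beta subunits that are bound to the alpha subunit by a disulfide bond, and Scn3b one that is bound without it. Scn2b ranged from 346.4 to 563.9 CPM in the PFC (median 415.2) and from 199.1 to 288.1 CPM in the Hypo (median 244.6). The groups did not overlap, and the level was 1.77-fold higher in the PFC (log2 difference 0.83 ± 0.07, SE, adjusted P = 3.93e-12). Scn3b ranged from 153.2 to 261.4 CPM in the PFC (median 189.5) and from 113.4 to 173.9 CPM in the Hypo (median 149.6). Its log2 difference of 0.31 ± 0.09 (SE, adjusted P = 0.003) was the smallest of those called. With each mouse as a term, it was 0.27 with adjusted P = 0.296 and was not called, although the PFC library was the higher in all 13 mice. In Ube3a2X mice alone, the call on Scn3b was lost without PFC Ube3a2X female 468 (log2 difference 0.21, adjusted P = 0.111) and without Hypo WT male 423 (0.31, adjusted P = 0.0632), and in WT mice alone without Hypo WT male 423 (0.25, adjusted P = 0.0967).
Scn4b, whose cytoplasmic tail can block the open pore and give a resurgent current, had the largest difference in favour of the PFC. It ranged from 70.3 to 338.7 CPM in the PFC (median 136.4) and from 7.34 to 24.01 CPM in the Hypo (median 17.2). No libraries overlapped between the tissues, and the level was 8.46-fold higher in the PFC (log2 difference 3.08 ± 0.26, SE, adjusted P = 7.1e-13). Within the 13 mice its log2 difference was between 2.13 and 4.87.

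**Figure D2:**
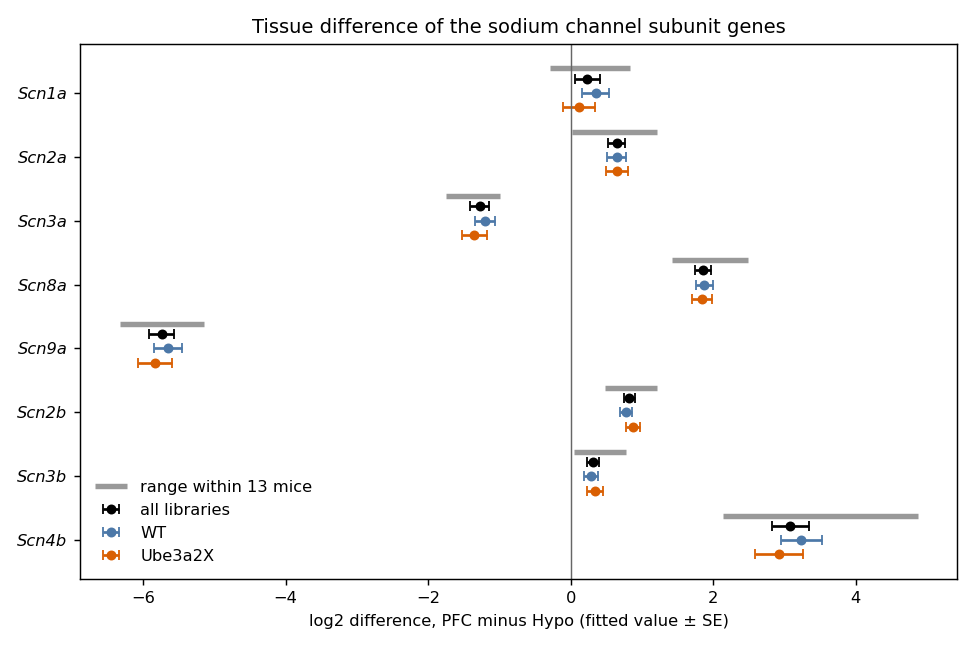
Log2 difference between PFC and Hypo for each channel gene (fitted value ± SE) over all libraries, in WT mice, and in Ube3a2X mice, with the range of the difference within the 13 mice that gave both tissues as a grey bar. Scn4b, Scn8a, Scn2b, and Scn2a lie to the right of 0 and Scn3a and Scn9a to the left, and the grey bar of Scn1a crosses 0.

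To compare the levels of different genes, CPM was divided by the length of the exons of each gene in kilobases. On this scale Scn2b was the highest of the 8 in both tissues, with 89.2 CPM per kb in the PFC and 52.5 in the Hypo (medians), above the next gene in every library. In the PFC it was followed by Scn2a (median 43.1), which exceeded Scn8a (33.3) in 19 of 20 libraries. Scn8a and Scn3b (34.7) did not differ in order beyond their spread, since Scn8a was the higher in 11 of 20. Scn4b (27.4) was below Scn3b in 15 of 20 libraries and above Scn1a (19.1) in 19. Scn3a (3.95) and Scn9a (0.107) came last without overlap.
In the Hypo, Scn2a (30.2) exceeded Scn3b (27.4) in 14 of 18 libraries, and Scn3b exceeded Scn1a (17.1) in all 18. Scn8a (10.45) and Scn3a (10.0) were within their spread, with Scn8a the higher in 12 of 18. Scn9a (5.58) and Scn4b (3.46) were the lowest. This order depends on the length used. Per kilobase of coding sequence, the beta genes stood higher, and in the PFC the medians were 643.7 CPM per kb for Scn2b, 293.9 for Scn3b, 199.4 for Scn4b, 91.2 for Scn2a, and 88.0 for Scn8a. In the Hypo, Scn4b (25.2) was then above Scn3a (21.3) and Scn9a (11.98) and just below Scn8a (27.6). Scn2b was the highest on both scales in both tissues.

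The share of each alpha gene in the sum of the 5, per exon kilobase, gives the make-up of the alpha transcripts in a library. It is a description without a test. Scn2a held a like share in both tissues, 37.89 to 46.55% in the PFC (median 43.7%) and 39.2 to 44.1% in the Hypo (median 40.9%). The share of Scn8a was 30.1 to 40.3% in the PFC (median 34.1%) and 12.7 to 24.2% in the Hypo (median 14.3%), and without WT female 471, which had the highest Hypo share, the Hypo range was 12.7 to 15.4%. Scn1a held 17.9% in the PFC and 23.4% in the Hypo (medians), Scn3a 4.09% and 13.8%, and Scn9a 0.115% and 7.70%. Scn2a and Scn8a together made up 73.22 to 81.55% of the alpha sum in PFC libraries, against 54.3 to 68.2% in the Hypo. For each unit of Scn2a there was 0.776 of Scn8a in the PFC and 0.353 in the Hypo (medians), and the lowest PFC ratio (0.663) exceeded the highest Hypo ratio (0.551). With the coding length in place of the exon length, the share of Scn8a was 40.2% in the PFC and 17.7% in the Hypo, so its size depends on the length used and the difference between tissues remained.

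**Figure D3:**
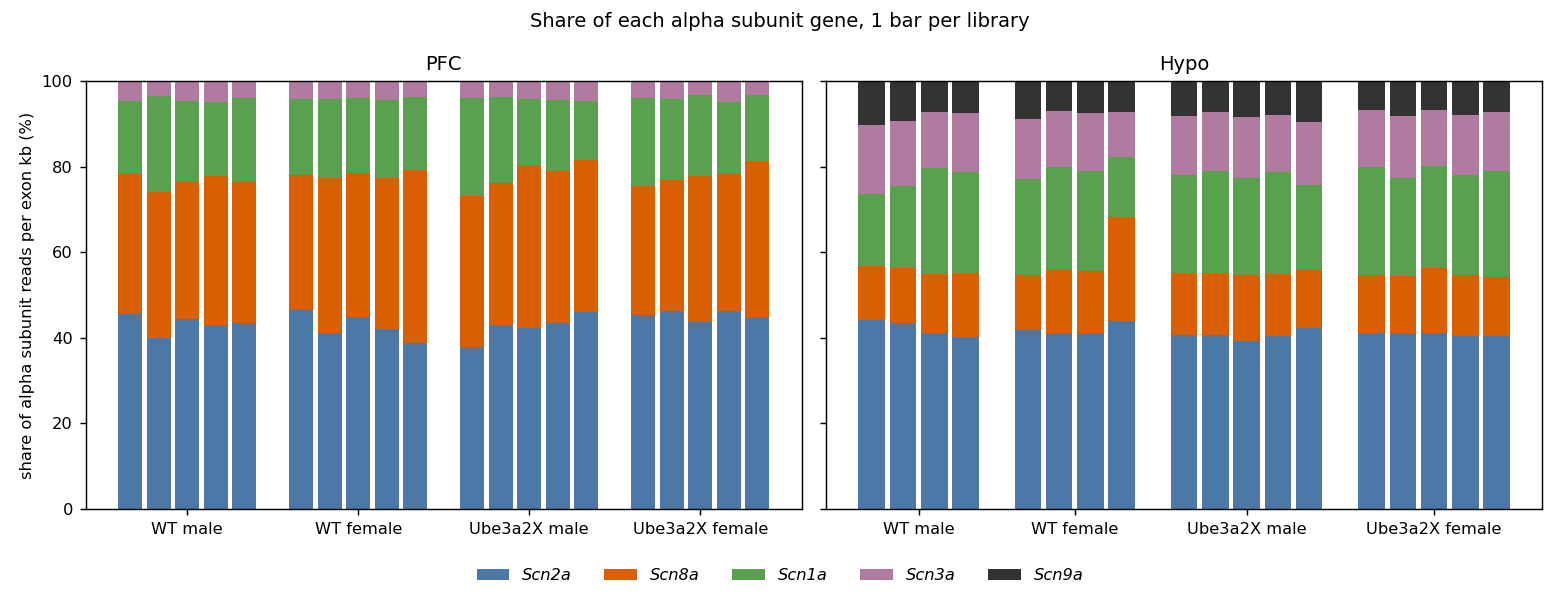
Share (percent) of each alpha gene in the summed reads per exon kilobase of the 5 alpha genes, 1 bar per library, by tissue, genotype, and sex. The orange part (Scn8a) spans 30.1 to 40.3% in PFC libraries, against 12.7 to 24.2% in the Hypo, where Scn3a and Scn9a take up more.

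The other genes of the channel complex and its anchors, a list of 28, also differed between the tissues, with 17 higher and 7 lower in the PFC and a median log2 difference of 0.54, in a comparison that called 31% of all genes higher and 32.4% lower. Of the 6 other channel subunit genes, 1 was higher in the PFC and 5 were higher in the Hypo. Among the 5, Scn7a, which codes for a sodium sensor of glia, was at a median of 38.3 CPM in the Hypo and 8.15 CPM in the PFC (log2 difference −2.06 ± 0.18, SE, adjusted P = 2.93e-12). Scn4a, Scn10a, and Scn11a had medians of 1.59 CPM or less in the Hypo and 0.0547 CPM or less in the PFC. A gene this near 0 in the PFC passes the filter on low values through the Hypo, where it has to be higher, so these 3 calls, which are among the 5 and the 7, are no support for a direction of the list.
The FGF homologous factors bind the tail of the alpha subunit and shift its inactivation. Fgf11, Fgf12, and Fgf13 were higher in the PFC, by 0.81, 1.04, and 1.40 on the log2 scale, and Fgf14 was not called (0.19, adjusted P = 0.14). Of the 8 anchors and adhesion molecules of the axon initial segment and the node, Ank2, Sptan1, Sptbn4, Nrcam, and Cntnap1 were higher in the PFC and Nfasc was lower. Ank3, the anchor that gathers sodium channels at the initial segment, was not called (log2 difference −0.11, adjusted P = 0.494). Kcnq3, a potassium channel gene whose protein is held by the same anchor, was higher in the PFC by 1.49. Of the 8 genes for ubiquitin ligases, kinase subunits, and calmodulin that act on the channel, 6 were higher in the PFC, among them Calm2 (1.34) and Calm3 (1.03), and 1, the ligase gene Nedd4, was lower (−0.33).

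In the PFC, none of the 7 channel genes that passed the filters was called for the sex-by-genotype interaction, the difference of the genotype effect in males from that in females. Over all 10900 genes tested, 0% were called and 25.4% had an unadjusted P under 0.05 in edgeR, and of the channel genes 1 of 7 did. With DESeq2, 829 of the genes were called and 1 of them was a channel gene, Scn2b, and with limma-voom 0. The study itself, with limma-voom, reported many genes with an interaction in the PFC, Scn1a and Scn2a among them. For Scn2a it also reported an interaction by quantitative PCR in a separate cohort of mice. Its methods list fewer WT mice for sequencing than the WT libraries of the PFC used here. The source of the difference was not tested. Scn9a was removed because 19 of its 20 PFC libraries held fewer than 100 reads. The median interaction was −0.22 for the 7 genes and 0.00 for all genes (log2), and 5 of the 7 values were below 0.
Scn2b had the smallest P. Its levels were 366.7, 392.8, 417.1, 417.2, and 429.2 CPM in WT males and 363.9, 364.3, 369.7, 381.0, and 407.0 CPM in Ube3a2X males. In females they were 346, 371, 424, 442, and 478 CPM in WT and 413, 468, 475, 495, and 564 CPM in Ube3a2X mice. The genotypes overlapped in both sexes. The fitted effect of genotype on Scn2b was −0.10 ± 0.06 in males and 0.13 ± 0.06 in females (log2, SE), and without 1 library it spanned −0.136 to −0.06 (Ube3a2X male 238) in males and 0.08 (WT female 397) to 0.18 in females. The interaction of Scn2b was −0.23 ± 0.08 (SE), with adjusted P = 0.115 in edgeR and 0.0385 in DESeq2.

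For Scn2a, the levels were 508, 519, 526, 558, and 617 CPM in WT males and 470, 476, 495, 549, and 549 CPM in Ube3a2X males. WT females had 438, 458, 553, 557, and 655 CPM and Ube3a2X females 548, 589, 609, 649, and 910 CPM. These groups overlapped too, and the highest value was that of Ube3a2X female 468. The interaction of Scn2a was −0.27 ± 0.13 (log2, SE, adjusted P = 0.197), and the effect of genotype was −0.12 ± 0.09 for males and 0.15 ± 0.10 for females. Without Ube3a2X male 238 the value for males was −0.07, and that for females ranged from −0.03 (WT female 397 left out) to 0.31 (WT female 93 left out). Scn1a had an interaction of −0.24 ± 0.15 and Scn3a of −0.22 ± 0.14, with adjusted P = 0.304 and 0.309 in edgeR. The other 3 genes lay between −0.051 and 0.055, each within its SE.
These values moved with single libraries. Without WT female 93, Scn2a (−0.46, adjusted P = 0.0224), Scn3a (−0.37, adjusted P = 0.0491), and Scn2b (−0.30, adjusted P = 0.0316) were called, in a fit that called 1723 of 10919 genes (15.8%). Without Ube3a2X male 253, Scn2b was called (−0.25, adjusted P = 0.0492) along with 9.31% of all genes. Without WT female 397, no gene was called, and the interaction was −0.02 for Scn1a, −0.05 for Scn2a, −0.13 for Scn3a, and −0.17 for Scn2b. Without Ube3a2X female 468, again with no gene called, it was −0.16 for Scn1a and −0.20 for each of Scn2a, Scn3a, and Scn2b.

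**Figure D4:**
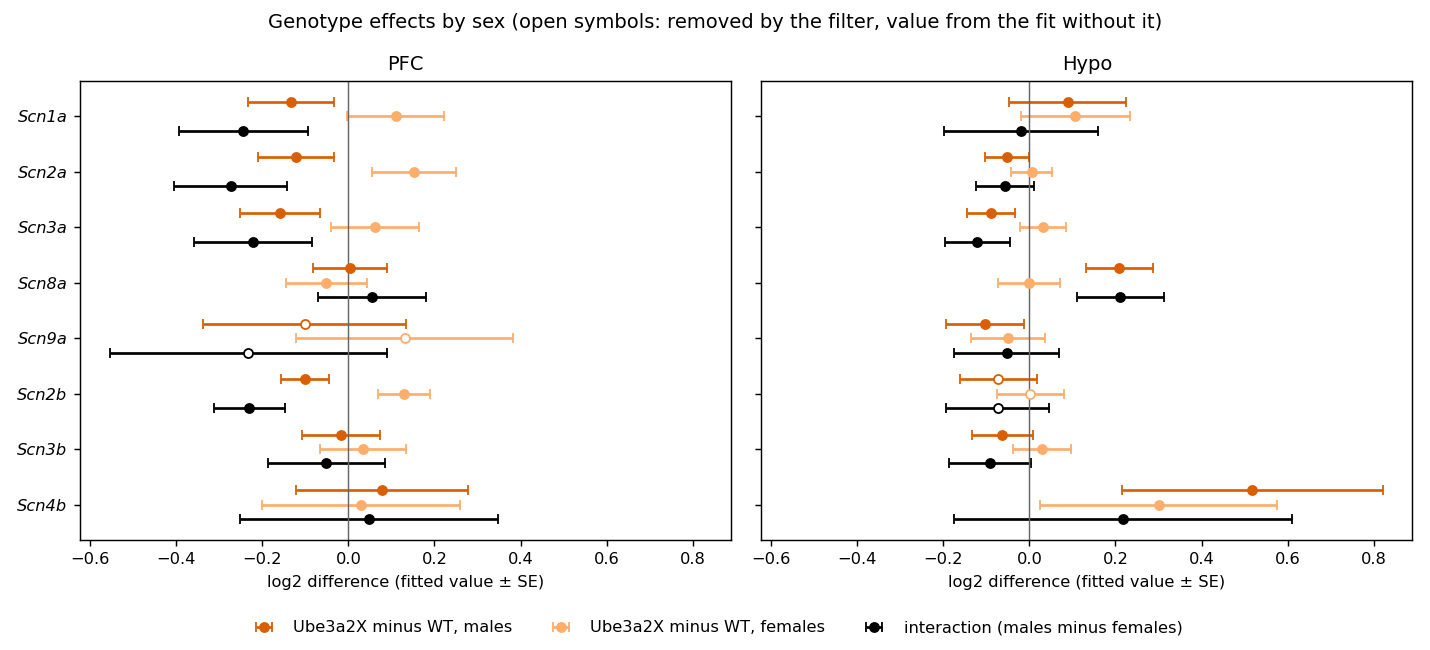
Fitted effect of genotype (Ube3a2X minus WT, log2, ± SE) in males and in females and their difference (interaction) for the 8 channel genes in the PFC and the Hypo. Open symbols are values from the fit without a filter on low values, for Scn9a in the PFC and Scn2b in the Hypo. None was called, and the PFC interactions of Scn1a, Scn2a, Scn3a, and Scn2b lie between −0.27 and −0.22.

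Averaged over the sexes, none of the 7 genes was called for genotype in the PFC, where 0.0183% of all genes were, and the 7 values lay between −0.049 and 0.054. None was called for sex (0.0917% of all genes), for genotype in males (0.0183%), or for genotype in females (0.00917%). In edgeR, an unadjusted P under 0.05 was reached by 0 of the 7 for genotype (7.93% of all genes), 1 for sex (8.83%), 0 for genotype in males (18.5%), and 1 for genotype in females (14.8%). The 1 gene was Scn2b each time, and limma-voom and DESeq2 called 0 of them in these comparisons. The quality of the PFC libraries moved with genotype. In 6 of the 10 Ube3a2X libraries (males 238, 253, 267, and 402, females 462 and 468), 97.4 to 99.1% of the reads lay on the expected strand, and in the other 4 and all 10 WT libraries 91.5 to 95.6%. With this share and RNA integrity as the only covariates, the interaction of Scn2b was −0.35 and that of Scn2a −0.44. Neither was called. The summed CPM of 5 markers of cortical excitatory neurons was 7250 to 10340 in Ube3a2X males and 5715 to 7066 in WT males, and it was 5519 to 7726 and 5798 to 7970 in Ube3a2X and WT females. The part of either in the channel genes' values was not tested.

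In the Hypo, Scn2b was removed by the filter on low variance and the other 7 genes were tested among 11869. None was called for the interaction (0% of all genes), genotype (0.00843%), genotype in males (0%), genotype in females (0.00843%), or sex (2.33%). In edgeR, an unadjusted P under 0.05 was reached by 0 of the 7 for the interaction (7.35% of all genes), 0 for genotype (5.1%), 1 for genotype in males (9.13%), 0 for genotype in females (3.23%), and 2 for sex (17.8%). DESeq2 and limma-voom called none of the 7. The 7 interaction values lay between −0.12 and 0.22.
Scn8a had the smallest P for genotype in males. Its levels were 136, 142, 164, and 166 CPM in WT males and 163, 165, 165, 166, and 203 CPM in Ube3a2X males. The groups overlapped, with 2 WT males below all Ube3a2X males. The fitted log2 difference of Scn8a was 0.21 ± 0.08 (SE, adjusted P = 0.534). In females the levels of Scn8a were 117, 161, 161, and 171 CPM in WT and 148, 166, 170, 171, and 183 CPM in Ube3a2X mice.

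Scn4b had the largest values for genotype in the Hypo, but with wide errors. The levels were 7.34, 7.70, 18.7, and 19.1 CPM in WT males and 14.9, 15.3, 15.4, 17.4, and 17.8 CPM in Ube3a2X males. In females they were 12.2, 12.2, 17.1, and 22.2 CPM in WT and 15.5, 17.6, 21.1, 23.7, and 24.01 CPM in Ube3a2X mice. The WT males formed a low and a high pair, with all Ube3a2X males between them. The log2 difference averaged over sexes was 0.41 ± 0.21 and that in males 0.52 ± 0.30 (SE, adjusted P = 0.949 and 0.596). Without WT male 403, they were 0.74 (adjusted P = 0.0481) and 1.18 (adjusted P = 0.0416) and were called, together with 12 (0.101%) and 48 (0.403%) of all 11897 genes, Scn4b included. Without WT male 251, of the low pair, they were 0.27 and 0.24 and were not called. The low pair of Scn4b, WT males 245 and 251, also had the lowest summed CPM of 5 oligodendrocyte markers in the Hypo, 2888 and 2962, and 3925 to 3959 was found in the other 2 WT males and 3546 to 4181 in the Ube3a2X males.
For sex in the Hypo, the log2 difference (male minus female) was −0.16 ± 0.05 for Scn3b (SE, adjusted P = 0.102), −0.20 ± 0.09 for Scn1a (adjusted P = 0.268), and −0.40 ± 0.21 for Scn4b (adjusted P = 0.338), none of them called. These values are adjusted for the covariates of the model. For Scn1a the unadjusted means went the other way, with a mean log2 CPM of 7.48 in males and 7.41 in females. The female mean includes WT female 471, at 5.60, and every other female was at 7.46 or more. Without WT female 471 the fitted difference of Scn1a was −0.19 and was not called. With RNA integrity and the expected-strand share as the only covariates, over all Hypo libraries, it was 0.08. Without WT male 403, Scn1a (−0.33, adjusted P = 0.00371) and Scn4b (−0.68, adjusted P = 0.0066) were called, as were 5.61% of all genes. In the other direction, Scn1a was −0.13 without WT male 245 and Scn4b −0.25 without WT male 251, neither called. Of the 28 other genes of the channel complex, 22 were tested in the Hypo and 1, Fgf13, was called, lower in males by 0.24 ± 0.06 on the log2 scale (adjusted P = 0.0359), in a comparison that called 2.33% of all genes. None of the 18 tested in the PFC was called in any comparison of genotype or sex.

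The genotype effect of the channel genes did not differ detectably between the tissues. In edgeR, none of the 8 genes and none of all 22282 (0%) was called for the difference of the genotype effect between PFC and Hypo, with 2474 of all genes (11.1%) and none of the 8 at an unadjusted P under 0.05. DESeq2 called 34 of all genes and limma-voom 0, and neither called a channel gene. The interaction compared between the tissues likewise had 0 calls over all genes in edgeR, DESeq2, and limma-voom (0 to 248 in edgeR without 1 library), with 1362 genes in edgeR (6.11%) and none of the 8 at an unadjusted P under 0.05. The values of the 8 genes lay between −0.30 and 0.09 for the genotype effect and between −0.21 and 0.13 for the interaction (log2), and the largest SE, that of Scn4b for the interaction, was 0.65.

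Across libraries of a tissue, the channel genes varied together in part, and much of this came with single libraries. Over the 20 PFC libraries the log2 levels of Scn2a had Pearson r = 0.88 with Scn2b, 0.74 with Scn8a, and 0.72 with Scn3a. Without Ube3a2X female 468, the highest in all 4 genes, these were 0.82, 0.40, and 0.55. Scn3b had r = −0.68 with Scn4b in the PFC, and −0.69 without that library, but 0.43 in the Hypo, and 0.40 without WT female 471. Over the 18 Hypo libraries Scn2a had r = 0.98 with Scn3a and 0.92 with Scn9a and Scn1a, and without WT female 471, the lowest in all of them, 0.82, 0.57, and 0.44. Libraries of a tissue share the scaling by total reads. In the PFC the log2 level of Scn2a also had r = −0.64 with the AT dropout of the library, a measure of reads lost from AT-rich sequence, and −0.31 without Ube3a2X female 468, which had the lowest dropout.
The genes most like each channel gene were chosen over the 20 PFC libraries, and their r in the Hypo is given without WT female 471. For Scn2a they were Rabgap1l and Alkbh8 (both r = 0.97, and 0.89 and 0.72 in the Hypo). For Scn8a they were Ube4b and Ubap2l (both r = 0.95, and 0.60 and 0.63 in the Hypo), and for Scn2b Oxr1 and Pgm2l1 (both r = 0.96, and 0.66 and 0.71 in the Hypo). Cadps2 and Krt222 were most like Scn1a (r = 0.95 and 0.94), and only Krt222 was also alike in the Hypo (r = 0.84, against −0.34 for Cadps2). Csmd3 and Slc4a7 were most like Scn3a (r = 0.90 and 0.88, and 0.47 and 0.76 in the Hypo). Plxnc1 and Cyld were most like Scn3b (r = 0.90 and 0.89, and 0.02 and 0.22 in the Hypo), and Fam204a and Riox2 most like Scn9a (r = 0.71 and 0.65, and 0.36 and 0.12 in the Hypo). Over all 18 Hypo libraries, Cadps2 had r = 0.55 with Scn1a and Plxnc1 r = 0.55 with Scn3b, so these rested on WT female 471.

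The genes most like Scn4b in the PFC were Mag (r = 0.94), which codes for a glycoprotein of myelin, and Septin4 (r = 0.94), and in the Hypo without WT female 471 both had r = 0.88. With the summed level of 5 oligodendrocyte markers, among them Mbp and Mag, Scn4b had r = 0.81 over the 20 PFC libraries and 0.71 over the 18 Hypo libraries. It was 0.73 in the PFC without Ube3a2X male 238 and 0.93 in the Hypo without WT female 471. Scn1a followed the same markers, with r = 0.66 in the PFC and, without WT female 471, 0.69 in the Hypo (−0.18 with it). Scn1a and Scn4b had r = 0.72 with each other in the PFC, where it was 0.89 without Ube3a2X female 468. In the Hypo it was 0.48, and 0.78 without WT female 471. Scn8a had r = 0.31 with the markers in the PFC and 0.08 in the Hypo, and without those libraries 0.49 and 0.59. Scn9a in the Hypo had r = −0.72 with them, and −0.74 without WT female 471. With the 6 striatal markers, Scn4b had r = 0.66 in the PFC and −0.17 in the Hypo. With the other 9 classes of markers its r was −0.63 (astrocytes) to 0.52 (Pvalb, of fast-spiking interneurons) in the PFC and −0.48 (microglia) to 0.73 (endothelium) in the Hypo. The PFC library with the most Scn4b, Ube3a2X male 238 at 338.7 CPM, also had the highest summed level of both lists, 3259 and 138.9 CPM, and that with the least Scn4b, Ube3a2X male 402 at 70.3 CPM, had 915 and 85.45 CPM. Between the tissues the markers went the other way from Scn4b, since the oligodendrocyte sum had a median of 1600 CPM in the PFC and 3838 CPM in the Hypo. The sum of the striatal markers had a median of 89.4 CPM in the PFC and 88.3 CPM in the Hypo, from members that went both ways, such as Ppp1r1b (50.35 and 11.96 CPM) and Rgs9 (4.11 and 34.8 CPM). None of the oligodendrocyte or striatal markers was at 0 in any library. Without Ube3a2X male 238 the log2 difference of Scn4b between the tissues was 2.95. The part of these cells in the level of Scn4b was not tested.

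**Figure D5:**
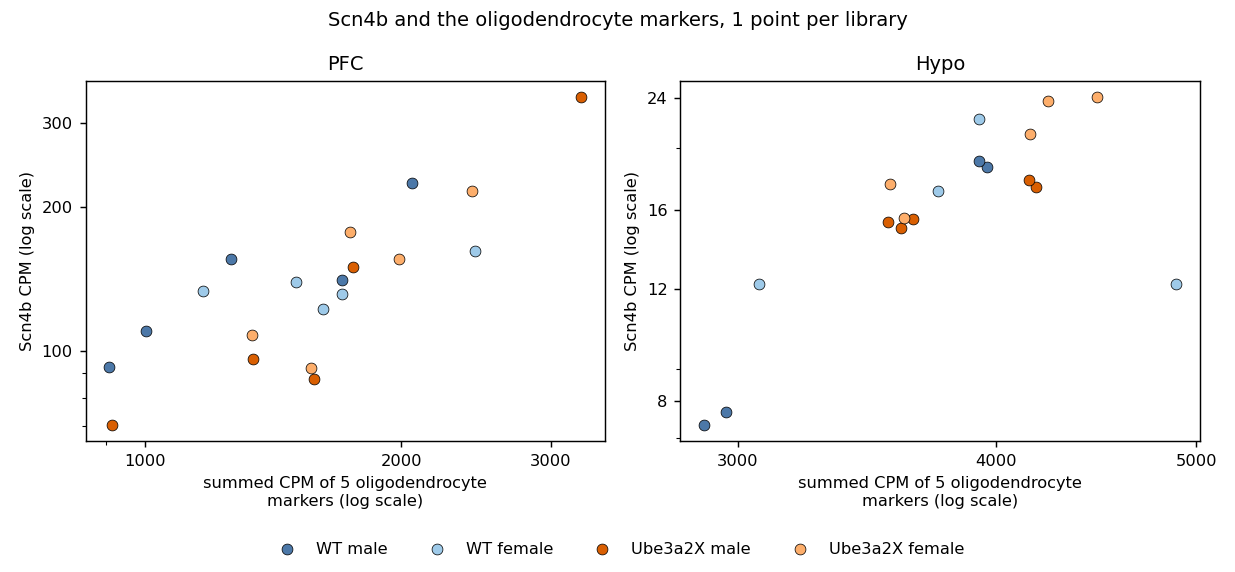
CPM of Scn4b against the summed CPM of 5 oligodendrocyte markers (both on log axes), 1 point per library, by genotype and sex, in the PFC and the Hypo. The points rise together within each tissue (r = 0.81 in the PFC and 0.71 in the Hypo, over all libraries). Hypo WT female 471 lies apart, with 12.2 CPM of Scn4b at the highest marker sum (4890 CPM), and without it the Hypo r was 0.93.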

How the data were processed

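The authors made stranded paired-end mRNA libraries, aligned the reads with STAR to mm10 (GRCm38), and counted them per gene with featureCounts. The study names Gencode v24, a release number of the human annotation, so the mouse release behind the counts is unclear. Versions are not given in the sources used here. The deposited count table holds whole reads per gene without normalization. The deposited quality table, made by the authors with Picard, gives RNA integrity (RIN) and AT dropout as a score, the part of reads matching the expected strand as a fraction, the coverage bias of the transcript ends as a ratio, and aligned reads as a count.

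From the counts, each tissue was fitted in R 4.3.3 with edgeR 4.0.16 (TMM, robust quasi-likelihood). Genes below 100 reads in at least 2 libraries and then the 15% with the lowest variance were removed. The model held the 4 groups, RIN, and 2 surrogate variables from sva 3.50.0. The tissues were compared in 1 fit of all 38 libraries (filterByExpr, RIN). P-values were adjusted over all genes tested by the method of Benjamini and Hochberg, with 0.05 as the limit for a call. CPM values are relative to TMM-scaled totals. Coordinates, lengths, and coding sequences came from GENCODE vM21 (GRCm38), and levels per kb and alpha shares rest on these lengths. Some genes of the lists, counted with the rest, and the sequences are not reported here.

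The fits were tested on simulated data with known changes. Alternatives used limma 3.58.1 (voom), DESeq2 1.42.0, RLE factors, other covariates and filters, an offset for GC content and length, the mouse as a block, and the omission of each library in turn. Of these, the expected-strand share as a covariate, and correlations without single libraries, were chosen after seeing the data. The members and lists were chosen with earlier results of these data known. Named genes are the 8 members, the other sodium channel genes, the genes of the pathway list that were called in a comparison, and the 2 genes per member with the highest Pearson r over the PFC libraries. Ank3 and Fgf14 fall outside this rule and were named after their values were seen.

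The 13 mice with both tissues pair the libraries because the tissues are from the same animal. Same-mouse libraries deviated together (r over 0.1) in 2 of 13 mice. Each library held 36.89 M reads or more. Over 72 pairs of libraries of 1 group, counts differed, in squared terms, by 11.2 to 504.1 times what sampling of reads alone gives. Within a tissue, the p-values measure the spread between libraries of separate mice, which includes dissection and library preparation. The reported fit between the tissues took all 38 libraries as independent, although 13 mice gave both tissues. The fits with the mouse as a term or block are alternatives to it.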

Additional observations from a re-analysis of the deposited data

Results flagged for a closer look

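In 64 sets of 4 or 5 libraries (8 genes in 8 groups), 6 held a library whose distance from the nearest other, as a share of the range of log2 CPM, passed the 95% limit of Dixon's test. Chance gives about 1 in 20. Of the 6, 4 were Hypo WT female 471, which was lowest for Scn1a (48.43 CPM, nearest 180.9), Scn2a (172 CPM, nearest 362.8), Scn3a (40.45 CPM, nearest 118.4), and Scn8a (117.4 CPM, nearest 161). Its RIN was 9.3, and its 5′ to 3′ coverage ratio of 0.489 and its 39.05 M reads were the lowest of the Hypo. The other 2 were Scn3b in Hypo Ube3a2X male 258, lowest at 117.5 CPM (nearest 144.5), and Scn8a in Hypo Ube3a2X male 238, highest at 203 CPM (nearest 165.6).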

How the results depend on the processing

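The tissue differences called kept their direction in all 186 refits with another setting and in all 798 that left out 1 library. The call was lost in 5 and 3 of these, each time for Scn3b. With a replicate block for the mouse in edgeR, 6 of the 8 genes were called and 6973 of all genes (14116 as reported), and with the mouse as a random block in limma-voom 7 of the 8. The paired fit changed no other call. Scn1a was called in WT mice (0.36, adjusted P = 0.037) after an offset for GC content and length. Within tissues, the sign of values that were not called changed in 95 of 630 refits and in 119 of 1330 without 1 library. Over the alternatives, the PFC interaction of Scn1a spanned −0.574 (principal components of the quality measures) to 0.000326 (the same offset), and that of Scn3a −0.291 to −0.049. For Scn2a it spanned −0.453 to −0.128 and for Scn2b −0.369 to −0.225. The Hypo sex effect of Scn1a was 0.083 with RIN and the expected-strand share as the only covariates, without the surrogate variables. Leaving out 1 library took the PFC effect of genotype in females on Scn2a from −0.033 (without WT female 397) to 0.31. The members called for the PFC interaction were 1 with DESeq2 and 0 to 3 without 1 library. In the Hypo without 1 library, they were 0 to 1 for genotype, 0 to 2 for sex, and 0 to 1 for genotype in males. Over all genes, calls for the PFC interaction were 0 as reported, 829 with DESeq2, and 0 to 1723 without 1 library. For sex in the Hypo there were 277 as reported. Without the surrogate variables there were 12 with RIN alone, 63 with RIN and principal components of the quality measures, and 95 with RIN and the expected-strand share. With the surrogate variables there were 150 with the offset, 661 with DESeq2, and 90 to 667 without 1 library. For sex in the PFC there were 10, and 0 to 41 over the alternatives. For genotype in the PFC there were 2, and 32 with DESeq2, and in PFC males 2, and 239 with DESeq2. For genotype in PFC females there was 1 as reported, up to 7 with another setting, and up to 7 without 1 library. For genotype in the Hypo, averaged over the sexes, there was 1, up to 5, and up to 12. In Hypo males there were 0, up to 17, and up to 48, and in Hypo females 1, up to 3, and up to 2. The difference of the genotype effect between tissues had 0 calls, 34 with DESeq2, 45 with the offset, and up to 250 without 1 library, and that of the interaction 0, and up to 248. The tissue difference had 8324 with the study's low-count filter, under which Scn9a was not tested and 6 of the 8 were called. With the coding length, the median alpha shares in the PFC were 14.7% (Scn1a), 41.1% (Scn2a), and 40.2% (Scn8a), and in the Hypo 20.3% (Scn1a) and 17.7% (Scn8a). The causes were not tested.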
